A study of Mus musculus with 18 samples.

Results

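The ADAMTS proteases are a family of secreted metalloproteases that carry thrombospondin type repeats, and 8 of their genes, Adamts1, Adamts2, Adamts4, Adamts5, Adamts6, Adamts9, Adamts10 and Adamts12, were followed across mouse ovaries. The genes were chosen by symbol, with earlier results of these data known, so counts of them beside the share of all genes are descriptions. Each was read from the probe sets listed with that symbol alone, and the probe set with the highest mean signal over the 18 arrays stood for the gene. Of the 8 genes, 7 had such a probe set, out of 18194 genes on the array, and these 7 were among the 12714 genes tested. Adamts2, whose product trims the N-terminal propeptide from fibrillar procollagens, was not analysed here. The ovaries came from 21-day-old females on a mixed C57B6J and S129 background. They were Pik3cd-/- or Pik3cd+/-, and Pik3cd is the gene for p110 delta, one of the catalytic subunits of the class I lipid kinases that make PIP3. Within each genotype the mice had received 1 intraperitoneal injection of 10 IU PMSG (pregnant mare serum gonadotropin, a hormone with FSH-like activity) and were examined 44 hours later, had received 3 intraperitoneal injections of 0.03 ml E2 (oestradiol, no concentration stated) at intervals of 24 hours and were examined 72 hours after the first, or were untreated. Each of the 6 groups held 3 arrays labelled as biological repeats, with no statement of how many animals an array stands for. Both genotypes lacked at least 1 copy of Pik3cd, so no value here refers to wild-type ovaries, and no group had received a vehicle injection, so the agent, the injection and the hours that passed cannot be told apart.

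ADAMTS enzymes act outside the cell, where they cut large proteins of the extracellular matrix. Adamts1, Adamts4, Adamts5 and Adamts9 belong to the branch that cleaves versican and aggrecan, proteoglycans that bind hyaluronan, while Adamts10 and its close relative Adamts6 are known for their part in fibrillin microfibrils and Adamts12 for cleaving cartilage oligomeric matrix protein. In the mouse ovary, Adamts1 is known as a gene that the progesterone receptor drives in granulosa cells after the ovulatory surge of luteinising hormone, and the cleavage of versican around the cumulus and oocyte is part of ovulation. PMSG is used to drive the follicle growth that precedes this surge.

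Values are signals in linear intensity units, and a difference (log2 ± SE) is that of log2(signal + 8.58), which understates the change of dim genes. Adjusted p-values are from limma over 12714 genes, and a gene was called at an adjusted p under 0.05. Median signals per array lay between 48.4 and 50.9, and precision is limited throughout by the small number of arrays. Of 3 tested probe sets of Pik3cd, the one that differed most averaged 22.4 to 26.2 in the Pik3cd-/- groups, against 67.1 to 70.4 in the Pik3cd+/- groups. The other two were not called between genotypes, and the labels do not say which part of the gene is deleted. All 10 granulosa and all 10 oocyte markers examined passed the filter on low values. The Pik3cd-/- E2 arrays stood apart from each other: replicates 2 and 3 had a mean correlation of 0.969 with their group mates, where the arrays of the other groups reached 0.979 to 0.993. Replicate 3 of that group was highest of its group in all 7 ADAMTS genes and in 8 of 12 cell type marker sums, and replicate 2 was lowest in 5 of the 7 genes and in 8 of the 12 sums. Stromal fibroblast markers summed to 35537 in replicate 3 and 18901 in replicate 2, adipocyte markers to 12409 and 238. Called ADAMTS differences that use this group are given with and without these arrays, and for genes named from the pathway lists the text says where a call was lost. Cell type markers and the other probe sets of the ADAMTS genes were not refitted without these arrays. Among the untreated Pik3cd-/- arrays, replicate 2 was highest in 9 of the 12 sums, and its granulosa markers summed to 27104, against 39027 and 39512 in the other two. Oviduct markers summed to 4508 in replicate 1 of the PMSG-treated Pik3cd+/- ovaries, against 387 and 581 in the other two, and PMSG calls for Adamts1 and Adamts5 in that genotype were kept without any single array.

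The 7 genes were expressed at middling levels in these ovaries. By mean signal over all arrays, Adamts5 stood highest at 429, followed by Adamts1 at 379, Adamts9 at 297, Adamts10 at 282, Adamts12 at 278, Adamts6 at 118 and Adamts4 at 72.9, each on its own probe set. These means lay between the 38.8 percentile (Adamts4) and the 73.5 percentile (Adamts5) of all genes. Signals of different probe sets are not a scale for comparing genes with one another. All 7 genes lay above the filter in every one of the 6 groups.

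**Figure D1:**
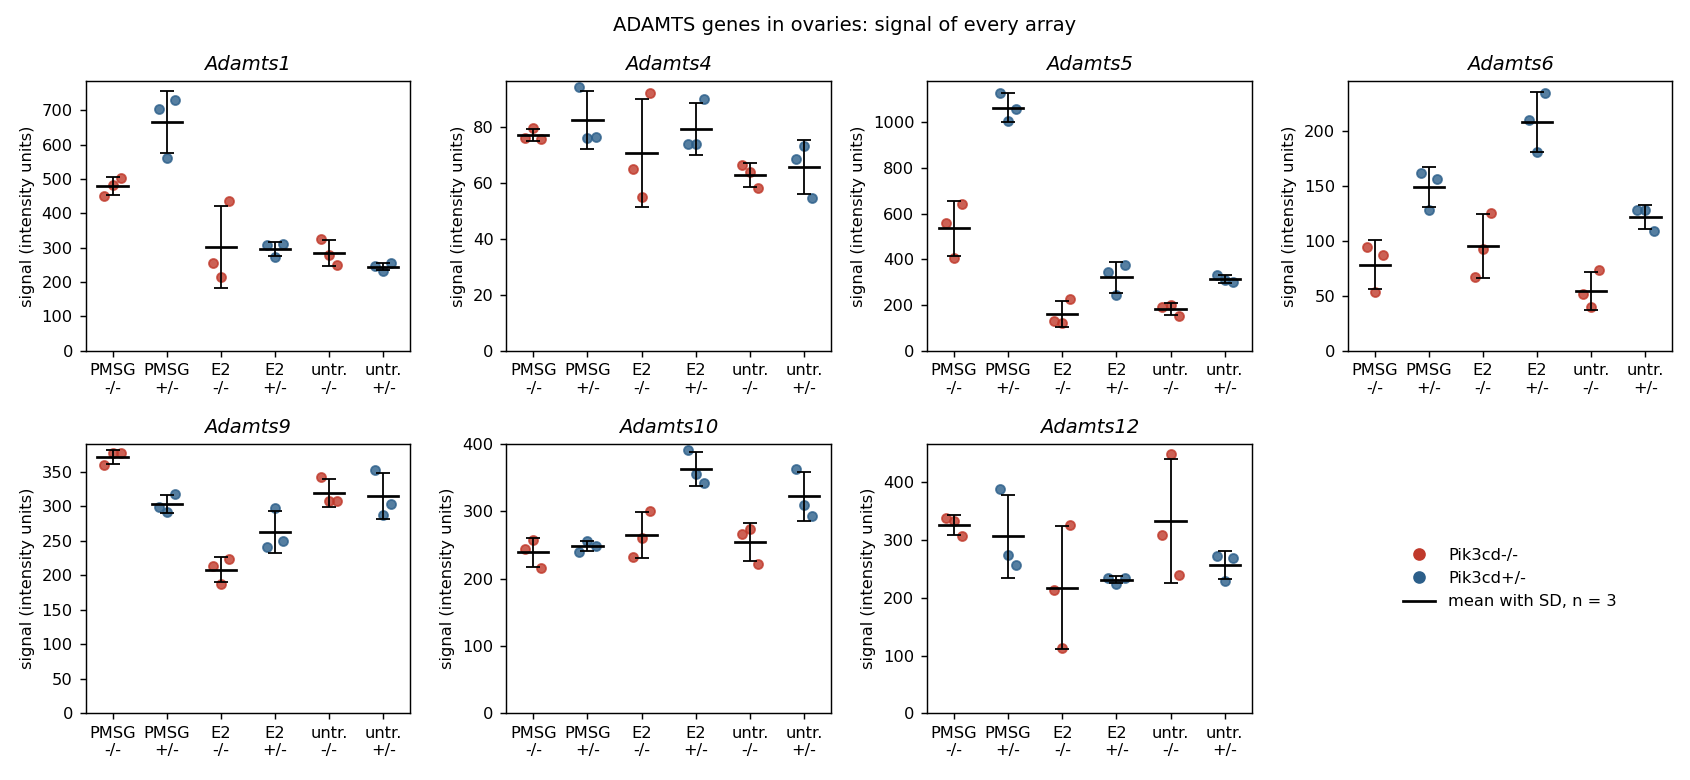
Signal of each ADAMTS gene (linear intensity units, its own axis per panel) on each of the 18 arrays, with points for arrays, and lines and whiskers for the group mean and SD (n = 3). The PMSG groups stand highest for Adamts1 and Adamts5, and the Pik3cd-/- groups lie below the Pik3cd+/- groups for Adamts5 and Adamts6 in all 3 states.

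Adamts1 (chr16:85793827-85803113, GRCm38.p6), a versican-cleaving protease of ovulating follicles, was highest after PMSG. Its signal was 451, 481 and 504 in PMSG-treated Pik3cd-/- ovaries, against 325, 279 and 248.9 in untreated Pik3cd-/- ovaries. In Pik3cd+/- ovaries it was 704, 561 and 730.4 after PMSG, against 248, 233 and 254 without treatment. The arrays did not overlap in either genotype, and every PMSG array stood above every untreated array of both genotypes. Adamts1 rose 1.67-fold in Pik3cd-/- ovaries (log2 0.74 ± 0.19, adjusted p = 0.0464) and 2.64-fold in Pik3cd+/- ovaries (log2 1.40 ± 0.19, adjusted p = 0.000429). The call in Pik3cd-/- ovaries was lost with any 1 of its 6 arrays left out except untreated replicate 1, with adjusted p-values up to 0.169. The log2 difference stayed at 0.65 to 0.84 in these fits. After E2 the signals were 255, 214 and 437 in Pik3cd-/- ovaries and 306, 273 and 311 in Pik3cd+/- ovaries, neither of which passed the test against untreated ovaries (adjusted p = 0.955 and 0.496). The Pik3cd-/- ovaries had less Adamts1 than the Pik3cd+/- ovaries after PMSG, 479 ± 26.3 against 665 ± 91.1 (SD, n = 3 each), without overlap of the arrays but with an adjusted p of 0.194. Fitted on these groups alone, the difference passed (adjusted p = 0.0440).

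The promoters of Adamts1, which rose after PMSG, and of Adamts9, a relative in the same branch that was not called after PMSG in either genotype, are printed so that the letters around their start sites can be compared. RefSeq promoters of 250 bases before to 50 after the start were found for 4 of the 8 genes (Adamts1, Adamts2, Adamts9 and Adamts12). Capitals mark TGACG (the core of the cAMP response element), GGGCGG (the GC box) and TATAAA, each on either strand, and the sequences run 5′ to 3′ along the gene, both from the minus strand of GRCm38.p6. The start used for Adamts1 is the 5′ end of its gene span, and that for Adamts9 lies 916 bases inside its span.
Adamts1, chr16:85803064-85803363: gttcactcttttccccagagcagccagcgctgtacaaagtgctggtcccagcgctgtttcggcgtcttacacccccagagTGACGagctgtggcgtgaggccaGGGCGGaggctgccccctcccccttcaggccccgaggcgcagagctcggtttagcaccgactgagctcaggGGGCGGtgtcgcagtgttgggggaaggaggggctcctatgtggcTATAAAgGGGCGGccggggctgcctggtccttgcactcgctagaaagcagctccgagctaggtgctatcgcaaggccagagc
Adamts9, chr6:92943485-92943784: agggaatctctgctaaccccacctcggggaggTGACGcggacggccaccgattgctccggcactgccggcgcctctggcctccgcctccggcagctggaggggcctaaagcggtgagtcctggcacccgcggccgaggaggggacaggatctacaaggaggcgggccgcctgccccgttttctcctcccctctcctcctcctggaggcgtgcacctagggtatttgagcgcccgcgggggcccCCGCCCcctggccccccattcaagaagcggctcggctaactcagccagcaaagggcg
The Adamts1 window held TGACG at 170 bases before the start, GGGCGG at 147, 76 and 25 bases, and TATAAA at 32 bases. The Adamts9 window held TGACG at 218 bases and GGGCGG on the other strand at 7 bases before the start. TATAAA was not among its letters. Of 32851 RefSeq mouse promoters of the same length, 20.8% held TGACG, 35.7% GGGCGG and 13.6% TATAAA. Of the other motifs searched on both strands, neither window held CCAAT (37.4% of the promoters did), the C/EBP motif TTNNGNAA (40.7%), the AP-1 motif TGANTCA (7.81%), the E-box CACGTG (7.15%) or the NR5A motif AAGGTCA (4.72%). The GC content was 64.7% for Adamts1 and 70% for Adamts9.

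Adamts5 (chr16:85858157-85901125), a strong aggrecan-cleaving enzyme and the neighbour of Adamts1 on chromosome 16, had the largest log2 difference after PMSG of the 7 genes in both genotypes. Its signal was 557, 407 and 643 in PMSG-treated Pik3cd-/- ovaries, against 189, 202 and 152 in untreated Pik3cd-/- ovaries. In Pik3cd+/- ovaries it was 1129, 1004 and 1058 after PMSG, against 333, 308 and 300.0 without treatment. No array overlapped between treated and untreated ovaries of a genotype, and the PMSG-treated Pik3cd-/- arrays lay between the untreated and the PMSG-treated Pik3cd+/- arrays. Adamts5 rose 2.84-fold in Pik3cd-/- ovaries (log2 1.51 ± 0.21, adjusted p = 0.00151) and 3.33-fold in Pik3cd+/- ovaries (log2 1.73 ± 0.21, adjusted p = 0.000271). E2 left it at 130, 123 and 227 in Pik3cd-/- ovaries and at 345, 243 and 374 in Pik3cd+/- ovaries, with log2 differences from untreated ovaries of -0.21 and 0.01 (adjusted p = 0.631 and 0.991).

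Adamts5 had lower means in Pik3cd-/- ovaries in all 3 states and passed the test in the treated ones. It averaged 536 ± 120 in Pik3cd-/- and 1064 ± 63.0 in Pik3cd+/- ovaries after PMSG (SD, n = 3 each), a log2 difference of -1.001 ± 0.21 (adjusted p = 0.0166). After E2 it averaged 160 ± 58.1 in Pik3cd-/- and 321 ± 69.0 in Pik3cd+/- ovaries, a difference of -0.996 ± 0.21 (adjusted p = 0.00840). In untreated ovaries the means were 181 ± 25.8 in Pik3cd-/- and 314 ± 17.4 in Pik3cd+/- ovaries, a log2 difference of -0.77 ± 0.21 that did not pass the threshold (adjusted p = 0.0623), although the arrays did not overlap. Fitted on the untreated groups alone, it passed (adjusted p = 0.0453). Leaving out Pik3cd-/- PMSG replicate 2 gave an adjusted p of 0.107 for the difference after PMSG, and leaving out Pik3cd+/- PMSG replicate 1 gave 0.0765. Without Pik3cd-/- E2 replicate 3 the difference after E2 was -1.26 (adjusted p = 0.000265), and without replicate 2 it was -0.85 (adjusted p = 0.0331).

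Of the 4 probe sets of Adamts5, the 3 that passed the filter gave the same picture. The second brightest averaged 515 ± 104 in PMSG-treated and 163 ± 30.5 in untreated Pik3cd-/- ovaries (adjusted p = 0.000696), and 1012 ± 144 in PMSG-treated and 287 ± 33.8 in untreated Pik3cd+/- ovaries (adjusted p = 0.000201). The third averaged 195 ± 41.6 in PMSG-treated and 69.0 ± 8.51 in untreated Pik3cd-/- ovaries (adjusted p = 0.00250), and 340 ± 23.3 in PMSG-treated and 94.7 ± 11.2 in untreated Pik3cd+/- ovaries (adjusted p = 0.000201). Both were lower in Pik3cd-/- ovaries after PMSG (adjusted p = 0.0199 and 0.0453) and after E2 (adjusted p = 0.00518 and 0.02), and neither passed in untreated ovaries (0.0610 and 0.272). The dimmest probe set averaged 4.87 over all arrays and was not tested.

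**Figure D2:**
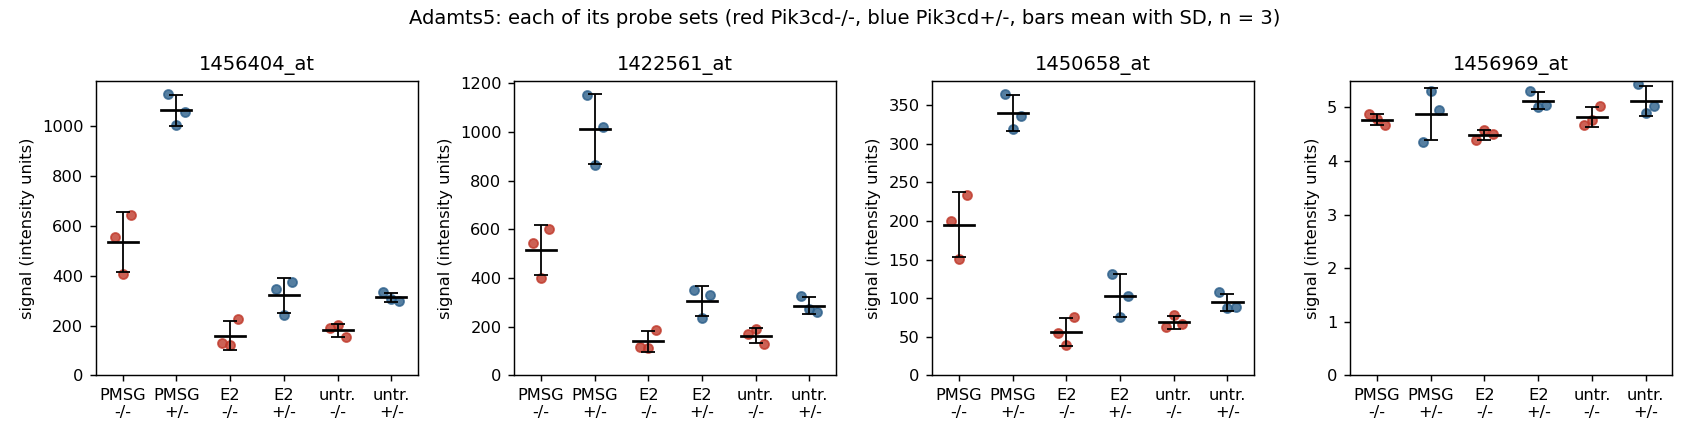
Signal of the 4 Adamts5 probe sets (linear intensity units) in the 6 groups, with points for the 3 arrays and marks for the group means. The 3 brighter probe sets are highest after PMSG and lower in Pik3cd-/- than in Pik3cd+/- ovaries by their means in each state, and the dimmest, which was not tested, has group means of 4.49 to 5.12.

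Adamts4 (chr1:171250129-171262267), an aggrecanase and the dimmest of the 7 genes, did not pass the test in any comparison. After PMSG its signal was 75.8, 79.4 and 75.6 in Pik3cd-/- and 94.1, 76.1 and 76.5 in Pik3cd+/- ovaries. Without treatment it was 66.5, 63.7 and 58.2 in Pik3cd-/- and 68.5, 73.2 and 54.6 in Pik3cd+/- ovaries. All PMSG arrays were higher than all untreated arrays of the same genotype, by log2 0.26 ± 0.15 in Pik3cd-/- (adjusted p = 0.346) and 0.30 ± 0.15 in Pik3cd+/- ovaries (adjusted p = 0.170). A second probe set of like brightness, with a mean of 72.0, had log2 differences of 0.29 and 0.40 in the same order (adjusted p = 0.416 and 0.141).

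Adamts9 (chr6:92772699-92944450), a widely expressed protease of the versican-cleaving branch, was lower after E2 in Pik3cd-/- ovaries. Its signal in Pik3cd-/- ovaries was 214, 188 and 224 after E2, against 342, 308 and 308 without treatment. In Pik3cd+/- ovaries it was 241, 298 and 250.5 after E2, against 352, 288 and 304 without treatment. The Pik3cd-/- arrays did not overlap, whereas in Pik3cd+/- ovaries 1 E2 array reached above the lowest untreated one. Adamts9 fell to 0.66 of its untreated level in Pik3cd-/- ovaries (log2 -0.60 ± 0.10, adjusted p = 0.0346), and its difference in Pik3cd+/- ovaries was -0.25 ± 0.10 (adjusted p = 0.195). The call in Pik3cd-/- ovaries was lost with any 1 of its 6 arrays left out except untreated replicate 3, with values of -0.65 (without E2 replicate 3) to -0.53 (without E2 replicate 2) and adjusted p-values up to 0.0985. Fitted on these Pik3cd-/- groups alone, Adamts9 did not pass (adjusted p = 0.715).

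After PMSG Adamts9 stood at 359.9, 377 and 377 in Pik3cd-/- ovaries and at 299, 293 and 318 in Pik3cd+/- ovaries. The PMSG-treated Pik3cd-/- arrays were thus above all PMSG-treated Pik3cd+/- arrays, by log2 0.29 ± 0.10 (adjusted p = 0.111), while after E2 the Pik3cd-/- arrays were below the Pik3cd+/- arrays, by log2 -0.32 ± 0.10 (adjusted p = 0.0336). That call after E2 was lost without Pik3cd-/- E2 replicate 1 (adjusted p = 0.0777) or 2 (0.118) and without Pik3cd+/- E2 replicate 2 (0.153), and kept without Pik3cd-/- E2 replicate 3 (0.0198). Set against E2, PMSG gave 1.75-fold more Adamts9 in Pik3cd-/- ovaries (log2 0.81 ± 0.10, adjusted p = 0.000204), and this difference was 0.74 without E2 replicate 2 and 0.86 without E2 replicate 3. In Pik3cd+/- ovaries the same comparison gave 0.20 ± 0.10 (adjusted p = 0.185). The 2 other probe sets of Adamts9 averaged 35.2 and 19.2, below the filter.

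Adamts6 (chr13:104286518-104496695), a relative of Adamts10 whose own substrates are less well known, was lower in Pik3cd-/- ovaries in every state. Without treatment its signal was 51.4, 39.5 and 73.7 in Pik3cd-/- and 128, 129 and 109 in Pik3cd+/- ovaries. After PMSG it was 94.9, 53.2 and 87.2 in Pik3cd-/- and 162, 128 and 157 in Pik3cd+/- ovaries. After E2 it was 67.5, 92.5 and 126 in Pik3cd-/- and 210.0, 181 and 235 in Pik3cd+/- ovaries. In each state all Pik3cd-/- arrays lay below all Pik3cd+/- arrays. Adamts6 was lower by log2 -1.07 ± 0.23 in untreated (adjusted p = 0.0288), -0.88 ± 0.23 in PMSG-treated (adjusted p = 0.0397) and -1.10 ± 0.23 in E2-treated Pik3cd-/- ovaries (adjusted p = 0.00743). The untreated call was lost with any 1 array left out except Pik3cd-/- replicate 3, with adjusted p-values up to 0.146, and the PMSG call with any except Pik3cd-/- replicate 1, with adjusted p-values up to 0.219. Fitted on the untreated groups alone, Adamts6 did not pass there (adjusted p = 0.0536). The E2 call was kept in all 6 cases, at -1.10 without Pik3cd-/- replicate 2 and -1.30 without Pik3cd-/- replicate 3.

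Adamts6 had higher means after E2 in both genotypes without passing the test. The log2 difference was 0.71 ± 0.23 in Pik3cd-/- ovaries (adjusted p = 0.235) and 0.73 ± 0.23 in Pik3cd+/- ovaries (adjusted p = 0.109), where all 3 E2 arrays were above all 3 untreated ones. Fitted on those Pik3cd+/- groups alone, it passed (adjusted p = 0.0130). After PMSG the differences were 0.46 in Pik3cd-/- and 0.27 in Pik3cd+/- ovaries (adjusted p = 0.288 and 0.436). A second probe set averaged 22.3, below the filter.

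Adamts10 (chr17:33523646-33553782), which binds fibrillin microfibrils, was lower with PMSG than with E2 in Pik3cd+/- ovaries. Its signal was 240.3, 256 and 249.2 in PMSG-treated Pik3cd+/- ovaries, 391.9, 356 and 342 in E2-treated ones and 364, 310.3 and 294 in untreated ones. The PMSG arrays lay below all arrays of the other two groups, by log2 -0.53 ± 0.11 against E2 (adjusted p = 0.00710) and -0.36 ± 0.11 against untreated ovaries (adjusted p = 0.0358). The call against untreated ovaries was lost with any 1 array left out except untreated replicate 3, with adjusted p-values up to 0.169. A second, dimmer probe set, with a mean of 80.1, passed in neither comparison, at 83.2 ± 20.8 after PMSG, 98.6 ± 16.0 after E2 and 83.4 ± 18.6 without treatment (adjusted p = 0.341 and 0.978). The signal in Pik3cd-/- ovaries was 244, 258 and 216 after PMSG and 266, 274 and 222 without treatment, a log2 difference of -0.08 ± 0.11 (adjusted p = 0.726).

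The genotypes differed in Adamts10 after E2, where it was 233, 261 and 300.4 in Pik3cd-/- against 391.9, 356 and 342 in Pik3cd+/- ovaries. The arrays did not overlap, and the log2 difference was -0.45 ± 0.11 (adjusted p = 0.0157). The dimmer probe set gave 60.1 ± 1.13 against 98.6 ± 16.0 (adjusted p = 0.0150). Without Pik3cd-/- E2 replicate 3 the difference was -0.54 and without replicate 2 it was -0.44 (adjusted p = 0.00391 and 0.0421). The call was lost without Pik3cd-/- replicate 1 (adjusted p = 0.0778) or Pik3cd+/- replicate 1 (0.0699). In untreated ovaries Adamts10 was lower in Pik3cd-/- by log2 -0.33 ± 0.11, again without overlap but not past the threshold (adjusted p = 0.105).

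Adamts12 (chr15:11064773-11349232), which cleaves cartilage oligomeric matrix protein, passed in none of the comparisons. Its arrays spread widely within some groups: 214, 113 and 325 in E2-treated and 309, 449 and 239 in untreated Pik3cd-/- ovaries, against 234, 224 and 234 in E2-treated and 272, 229 and 268 in untreated Pik3cd+/- ovaries. After PMSG it was 338, 332 and 306 in Pik3cd-/- and 388, 274 and 256 in Pik3cd+/- ovaries. Its SE of 0.28 was the largest of the 7 genes, and its interval for PMSG in Pik3cd-/- ovaries ran from -0.57 to 0.60. Without Pik3cd-/- E2 replicate 3, PMSG stood above E2 in Pik3cd-/- ovaries by log2 1.02 (adjusted p = 0.0182), against 0.68 (adjusted p = 0.188) with all arrays.

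With all arrays, Adamts1 and Adamts5 were called higher after PMSG in both genotypes and Adamts10 lower in Pik3cd+/- ovaries. The Adamts10 call was lost in 7 of 15 alternative fits, and the other probe set gave log2 -0.0083. The Adamts1 call in Pik3cd-/- ovaries was lost in 6 of 15. Of the 7 genes 2 were called in Pik3cd-/- ovaries, both higher, where 2.38% of all genes were called and 1.71% were higher. The count was 3 of 7 in Pik3cd+/- ovaries, where 17.7% of all genes were called, 5.8% higher and 11.9% lower. The median log2 difference of the 7 genes was 0.26 in Pik3cd-/- and 0.27 in Pik3cd+/- ovaries, beside -0.01 and -0.05 for all genes. The arrays of 4 of the 7 genes did not overlap in each of the genotypes, against 26.8% of all genes in Pik3cd-/- and 40% in Pik3cd+/- ovaries. None of the 10 oocyte markers was called after PMSG in Pik3cd-/- ovaries, and 7 were lower in Pik3cd+/- ovaries. Their sums lay between 8204 and 9441 in PMSG-treated and between 15395 and 16367 in untreated Pik3cd+/- ovaries. None of 8 macrophage markers was called in Pik3cd-/- ovaries, and 4 were higher in Pik3cd+/- ovaries, with sums of 1824 to 3555 after PMSG and 1196 to 1347 without treatment. Theca and steroidogenic markers were called higher in 3 of 7 cases in Pik3cd-/- ovaries, and 3 higher and 2 lower in Pik3cd+/- ovaries. Their part in the ADAMTS values was not tested. In whole ovaries fewer cells of a type and less RNA per cell cannot be told apart.

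After E2 Adamts9 was the one ADAMTS gene called against untreated ovaries, in Pik3cd-/- ovaries. In Pik3cd-/- ovaries 1 of 7, Adamts9, was called, lower, where 0.0551% of all genes (7 of 12714) were called and 0.0472% were lower. The Adamts9 call was lost in 9 of 15 alternative fits. In Pik3cd+/- ovaries limma called 0 of 7, where 1.62% of all genes were called. At an unadjusted p under 0.05 by limma, 2 of the 7 passed there (Adamts6 higher and Adamts9 lower), beside 2160 of the 12714 genes. In Pik3cd-/- ovaries 3 of the 7 did (Adamts6 higher, Adamts9 and Adamts12 lower), beside 1862 of the 12714 genes. The arrays did not overlap for 1 of the 7 in Pik3cd-/- and 3 of the 7 in Pik3cd+/- ovaries, against 13.3% and 28.7% of all genes. The medians of the 7 genes were 0.03 in Pik3cd-/- and 0.17 in Pik3cd+/- ovaries, beside medians of -0.05 and 0.0035 for all genes.

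The treatments were also set against each other, at 44 hours for PMSG and 72 hours for E2, so agent and time cannot be told apart. Of the 7 genes 3 were called in Pik3cd-/- ovaries, Adamts1, Adamts5 and Adamts9, all higher with PMSG, where 4.11% of all genes were called and 3.33% were higher. In Pik3cd+/- ovaries 3 of 7 were called, Adamts1 and Adamts5 higher and Adamts10 lower, where 11.2% were called, 3.54% higher and 7.65% lower. Arrays did not overlap for 3 of the 7 in Pik3cd-/- and 5 of the 7 in Pik3cd+/- ovaries, against 26.1% and 31.8% of all genes. Adamts5 was 3.29-fold higher with PMSG than with E2 in Pik3cd-/- ovaries (log2 1.72 ± 0.21, adjusted p = 0.000258, 1.57 without E2 replicate 2 and 1.99 without E2 replicate 3) and 3.30-fold in Pik3cd+/- ovaries (log2 1.72 ± 0.21, adjusted p = 0.000194). Adamts1 was 1.64-fold higher in Pik3cd-/- ovaries (log2 0.72 ± 0.19, adjusted p = 0.0412) and 2.19-fold in Pik3cd+/- ovaries (log2 1.13 ± 0.19, adjusted p = 0.00162). For Adamts1 in Pik3cd-/- ovaries the call was kept without E2 replicate 3 (1.01, adjusted p = 0.000371) and lost without any other of the 6 arrays, down to 0.51 without E2 replicate 2 (adjusted p = 0.197). Over all genes limma called 522 in Pik3cd-/- ovaries, 235 without E2 replicate 2 and 1363 without E2 replicate 3. Of 7 theca and steroidogenic markers, 4 were called higher with PMSG than with E2 in Pik3cd-/- ovaries, and 4 higher and 2 lower in Pik3cd+/- ovaries, with medians of 0.87 and 1.00. Of 8 stromal fibroblast markers 2 were called higher in each genotype. Their part in the ADAMTS values was not tested.

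**Figure D3:**
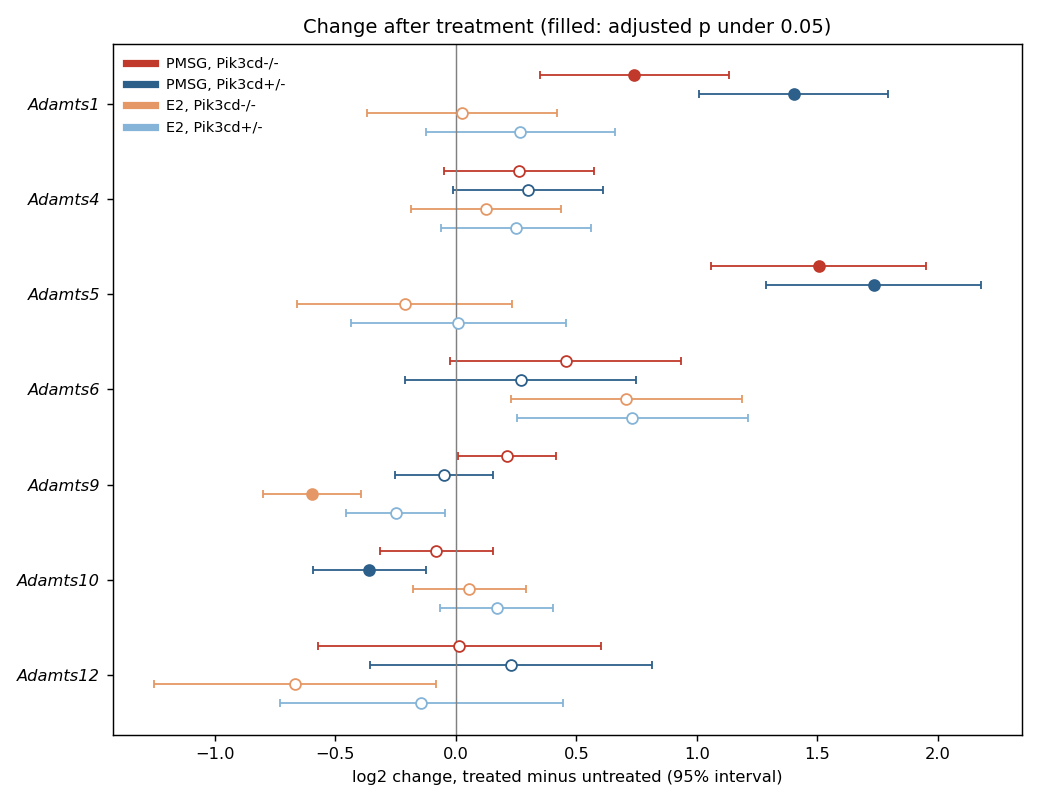
Log2 difference of each ADAMTS gene after PMSG and after E2 against untreated ovaries, with Pik3cd-/- above Pik3cd+/- for each gene. Points are limma estimates, bars are 95% intervals and filled points passed the adjusted threshold. Adamts5 reaches 1.51 and 1.73 and Adamts1 0.74 and 1.40 after PMSG, while after E2 the one filled point is Adamts9 in Pik3cd-/- at -0.60.

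Between genotypes, Adamts6 was called lower in Pik3cd-/- ovaries in all 3 states and Adamts5 in the treated ones. In untreated ovaries 1 of 7 genes was called, Adamts6, lower in Pik3cd-/-, where 2.17% of all genes were called and 1.34% were lower. After PMSG 2 of 7 were called, Adamts5 and Adamts6, both lower, where 4.13% were called and 1.05% were lower. After E2 4 of 7 were called, Adamts5, Adamts6, Adamts9 and Adamts10, all lower, where 16.8% were called and 12% were lower. The arrays did not overlap for 3 of the 7 genes untreated, 4 after PMSG and 4 after E2, against 26.5%, 27.9% and 33.3% of all genes. The median of the 7 genes was -0.05 untreated, -0.08 after PMSG and -0.32 after E2, beside -0.01, 0.01 and -0.07 for all genes. Fitted on those groups alone, limma called 0 of 7 after E2, and the 4 genes named above had adjusted p-values of 0.0564 to 0.149. In that fit 0.851% of all genes were called, and 3372 of 12452 had an unadjusted p under 0.05. The shares of all genes moved with single arrays: with 1 array left out, limma called 1 to 678 genes untreated (276 with all arrays), 82 to 384 after PMSG (525) and 646 to 2971 after E2 (2141). The untreated count was 1 without Pik3cd+/- replicate 2 and 4 without Pik3cd-/- replicate 2.

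Oocyte markers moved the other way with genotype. Of 10, 5 were higher in Pik3cd-/- untreated ovaries, 9 after PMSG and 10 after E2, with median log2 differences of 0.70, 1.14 and 0.99. Of all genes 2.17%, 4.13% and 16.8% were called in these states, counting either direction. Their sums ran from 17478 to 19248 in PMSG-treated Pik3cd-/- and from 8204 to 9441 in PMSG-treated Pik3cd+/- ovaries. After E2 they ran from 13925 to 25047 in Pik3cd-/- and from 10135 to 11385 in Pik3cd+/- ovaries. Without treatment they ran from 21862 to 26580 in Pik3cd-/- and from 15395 to 16367 in Pik3cd+/- ovaries. Of the 10 granulosa markers, 1 was called higher in Pik3cd-/- ovaries untreated, none after PMSG and 1 after E2, and none was called lower in any state, while their median differences were -0.32, -0.01 and -0.14 in the order untreated, PMSG and E2. The E2 calls of these markers were not refitted without single Pik3cd-/- E2 arrays, and the part of the markers in the ADAMTS differences was not tested.

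**Figure D4:**
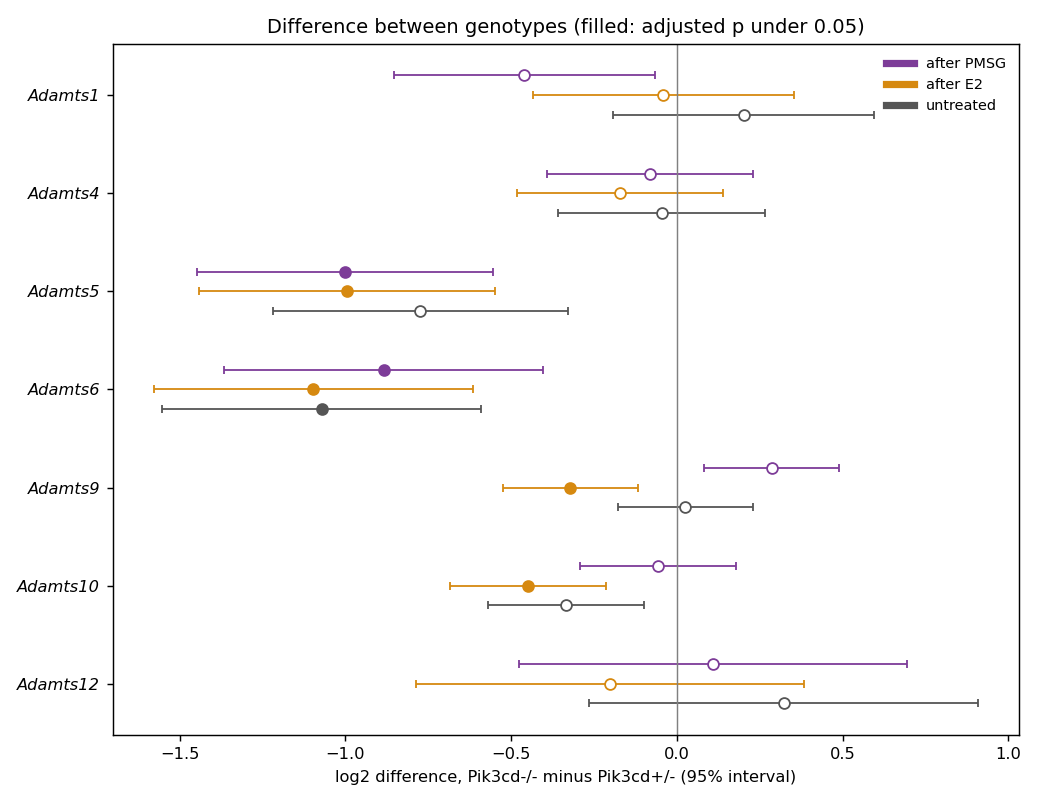
Log2 difference between Pik3cd-/- and Pik3cd+/- ovaries for each ADAMTS gene, untreated, after PMSG and after E2. Points are limma estimates, bars are 95% intervals and filled points passed the adjusted threshold. Adamts5 and Adamts6 lie between -0.77 and -1.10 in all 3 states, and Adamts9 is at 0.03, 0.29 and -0.32.

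Whether the treatments acted differently in the genotypes was tested by interaction terms. By limma 0 of 7 ADAMTS genes, and 0% of all genes, passed for PMSG or for E2, while 1193 and 924 of the 12714 genes had an unadjusted p under 0.05. Among the 7, Adamts1 did so for PMSG: its rise was smaller in Pik3cd-/- than in Pik3cd+/- ovaries by log2 -0.66 ± 0.26 (limma adjusted p = 0.452). Adamts9 did so for E2, with a difference of -0.35 ± 0.14 (limma adjusted p = 0.660). For Adamts5 the PMSG interaction was -0.23 ± 0.30 (adjusted p = 0.839), with an interval of -0.86 to 0.40. The different rises of Adamts1 and Adamts5 in the genotypes were therefore not shown to differ. With 1 array left out, up to 4 of all genes passed for PMSG (without Pik3cd+/- PMSG replicate 3). For E2 up to 71 passed (without Pik3cd-/- E2 replicate 3), and no ADAMTS gene was called in any of these fits.

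Contrasts averaged over groups, added after the data were seen, used more arrays per value. Averaged over the 3 states, Adamts6 was lower in Pik3cd-/- ovaries by log2 -1.02 ± 0.13 (adjusted p = 0.000119), Adamts5 by -0.92 ± 0.12 (adjusted p = 0.000140) and Adamts10 by -0.28 ± 0.06 (adjusted p = 0.00492). These 3 of 7 calls stood beside 27.7% of all genes called and 15.9% called lower. Averaged over the genotypes, E2 raised Adamts6 by 0.72 ± 0.16 (adjusted p = 0.0240) and lowered Adamts9 by log2 -0.42 ± 0.07 (adjusted p = 0.00496), 2 of 7 beside 4.47% of all genes (2.16% higher and 2.31% lower). PMSG raised Adamts1 by 1.07 ± 0.13 (adjusted p = 0.000103) and Adamts5 by 1.62 ± 0.15 (adjusted p = 7.5e-06), 2 of 7 beside 24% of all genes (8.47% higher). Adamts10 was at -0.22 ± 0.08 (adjusted p = 0.0512). The calls averaged over states and the E2 calls averaged over genotypes were kept without Pik3cd-/- E2 replicate 2 and without replicate 3. Adamts6 after E2 was then at 0.72 and 0.62 (adjusted p = 0.0326 and 0.0479). The PMSG averages use no E2 array, so their log2 values could not change, and only the shared spread and the adjustment could. Without replicate 3, 3 more averages passed: Adamts1 between genotypes (-0.20, adjusted p = 0.0390) and Adamts4 and Adamts10 after PMSG (adjusted p = 0.0194 and 0.0347). Without replicate 2, Adamts4 after PMSG passed (adjusted p = 0.0368).

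Other genes of the pathway were taken from lists chosen by function. Their calls were not refitted with single arrays left out, other than Pik3cd-/- E2 replicates 2 and 3, so their PMSG calls had no such check. Of 11 other ADAMTS genes, 8 had a probe set and 4 were tested (Adamts3, Adamts7, Adamts15 and Adamts16). Adamts15, another member of the branch that cleaves versican and aggrecan, rose after PMSG in both genotypes. It averaged 95.9 ± 14.3 in PMSG-treated and 51.7 ± 5.19 in untreated Pik3cd-/- ovaries (log2 0.79 ± 0.20, adjusted p = 0.0484), and 90.0 ± 29.7 in PMSG-treated and 45.2 ± 4.59 in untreated Pik3cd+/- ovaries (log2 0.84 ± 0.20, adjusted p = 0.0113). Of the Pik3cd+/- groups, the PMSG-treated one alone was above the filter. Adamts3, a procollagen-processing relative of Adamts2, was higher in Pik3cd-/- ovaries after E2 (log2 0.47 ± 0.12, adjusted p = 0.0167). That call was lost without Pik3cd-/- E2 replicate 2 (0.39, adjusted p = 0.0627), and Adamts3 passed the filter on low values in 2 of 6 groups, the E2-treated and the untreated Pik3cd-/- ovaries. Of the 3 ADAMTS-like genes tested, which encode family relatives without the protease domain, Adamtsl1 was lower after PMSG in Pik3cd+/- ovaries (log2 -0.45 ± 0.13, adjusted p = 0.0316) and Adamtsl2 higher after PMSG in Pik3cd-/- ovaries (log2 0.84 ± 0.16, adjusted p = 0.0154).

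Among the substrates, 9 genes of the hyaluronan-bound matrix were tested. After PMSG 1 was called higher in Pik3cd-/- and 2 in Pik3cd+/- ovaries, and after E2 2 were higher and 2 lower in Pik3cd+/- ovaries and none was called in Pik3cd-/- ovaries. Of all genes 1.71% were called higher after PMSG in Pik3cd-/- and 5.8% in Pik3cd+/- ovaries. After E2 1.62% of all genes were called in Pik3cd+/- and 0.0551% in Pik3cd-/- ovaries, counting either direction. Vcan, which encodes versican, averaged 1273 ± 78.8 in PMSG-treated and 737 ± 93.6 in untreated Pik3cd-/- ovaries (log2 0.79 ± 0.19, adjusted p = 0.0424), and in Pik3cd+/- ovaries the difference of 0.39 ± 0.19 did not pass (adjusted p = 0.167). With all arrays no gene passed the PMSG by genotype interaction, so the response of Vcan was not shown to differ between genotypes. After E2 Vcan averaged 471 ± 74.3, against 878 ± 158 in untreated Pik3cd+/- ovaries (log2 -0.88 ± 0.19, adjusted p = 0.0328). Ptx3, a pentraxin that stabilises the cumulus matrix, rose after PMSG (log2 0.45 ± 0.12, adjusted p = 0.0216) and fell after E2 (log2 -0.61 ± 0.12, adjusted p = 0.0224) in Pik3cd+/- ovaries. Itih2, a heavy chain that is joined to hyaluronan, averaged 89.0 ± 20 in Pik3cd-/- and 372 ± 89.9 in Pik3cd+/- ovaries after E2 (log2 -1.96 ± 0.27, adjusted p = 0.00123). Bcan, which encodes brevican, was higher in Pik3cd-/- ovaries without treatment (log2 1.04 ± 0.12, adjusted p = 0.00223) and after PMSG (log2 0.67 ± 0.12, adjusted p = 0.00646).

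Of 18 other substrates, Comp, the substrate of Adamts12, was called higher after PMSG in both genotypes. It averaged 132 ± 10.2 in PMSG-treated and 40.8 ± 8.77 in untreated Pik3cd-/- ovaries (log2 1.53 ± 0.32, adjusted p = 0.0193), and 382 ± 282 in PMSG-treated and 42.1 ± 4.18 in untreated Pik3cd+/- ovaries (log2 2.72 ± 0.32, adjusted p = 0.000234). Tfpi2, a serine protease inhibitor, rose after PMSG in Pik3cd+/- ovaries (log2 0.99 ± 0.19, adjusted p = 0.00451), which made 2 of 18 called higher there and 1 of 18 in Pik3cd-/- ovaries. The shares of all genes called higher were 5.8% and 1.71% in the same order. Comp in both genotypes and Tfpi2 in Pik3cd+/- ovaries were below the filter without treatment and were tested because other groups, the PMSG-treated ones among them, lay above it, so these calls and the counts that hold them support nothing further. After E2 Fbn2, which encodes fibrillin-2, was lower in Pik3cd-/- than in Pik3cd+/- ovaries (log2 -0.81 ± 0.14, adjusted p = 0.00295), as was Thbs1, which encodes thrombospondin-1 (log2 -0.52 ± 0.13, adjusted p = 0.0152).

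Of 11 tested genes for inhibitors, clearance and maturation of these enzymes, 3 were higher and 1 lower after PMSG in Pik3cd+/- ovaries. Of all genes 5.8% were called higher and 11.9% lower there. Reck, a membrane-bound inhibitor of metalloproteases, rose (log2 0.75 ± 0.18, adjusted p = 0.0117), Timp1, a secreted inhibitor, rose (log2 0.47 ± 0.14, adjusted p = 0.0314) and Lrp1, the receptor that takes up several ADAMTS enzymes, fell (log2 -0.45 ± 0.13, adjusted p = 0.0260). None was called after PMSG in Pik3cd-/- ovaries, where 2.38% of all genes were called. Timp3, an inhibitor of ADAMTS4 and ADAMTS5, was higher in Pik3cd-/- ovaries after E2 (log2 0.49 ± 0.12, adjusted p = 0.0167). Pcsk6, a proprotein convertase, was higher in Pik3cd-/- ovaries after PMSG (log2 1.15 ± 0.28, adjusted p = 0.0337) and after E2 (log2 0.87 ± 0.28, adjusted p = 0.0464), where the call was lost without Pik3cd-/- E2 replicate 2 (0.81, adjusted p = 0.111).

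Among related protease families, none of the 7 tested matrix metalloproteases was called after PMSG in either genotype, and 1, Mmp11, was lower in Pik3cd-/- ovaries after E2 (log2 -0.97 ± 0.26, adjusted p = 0.0216), a call lost without Pik3cd-/- E2 replicate 2 (-0.91, adjusted p = 0.0613). After PMSG 2.38% of all genes were called in Pik3cd-/- and 17.7% in Pik3cd+/- ovaries. Between genotypes after E2, 12% of all genes were called lower in Pik3cd-/- ovaries. Of 8 ADAM genes, membrane-bound relatives, Adam23 was called higher after PMSG in Pik3cd-/- (log2 1.03 ± 0.15, adjusted p = 0.00176) and Pik3cd+/- ovaries (log2 1.24 ± 0.15, adjusted p = 0.000234). Both PMSG groups lay above the filter and the other 4 groups below it. Adam23 was thus tested only because of the groups in which it was high, so these calls support nothing further. Adam9 rose in Pik3cd+/- ovaries (log2 0.36 ± 0.08, adjusted p = 0.00898).

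Of 8 tested regulators of ovulation and of Adamts1, 1 was higher after PMSG in Pik3cd-/- and 2 in Pik3cd+/- ovaries. The shares of all genes called higher were 1.71% and 5.8% in the same order. Cebpb, a transcription factor needed for ovulation in mice, rose after PMSG by log2 0.78 ± 0.12 in Pik3cd-/- (adjusted p = 0.00401) and 0.99 ± 0.12 in Pik3cd+/- ovaries (adjusted p = 0.000299). It also rose after E2 in Pik3cd+/- ovaries (log2 0.76 ± 0.12, adjusted p = 0.00905), where Adamts1 did not pass. Pgr, which encodes the progesterone receptor, averaged 143 ± 44.9 in PMSG-treated and 139 ± 31.4 in untreated Pik3cd-/- ovaries, and 240.2 ± 180 in PMSG-treated and 112 ± 42.1 in untreated Pik3cd+/- ovaries. It was not called in either genotype (adjusted p = 0.996 and 0.312).

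Across the 18 arrays, which share treatments and genotypes, the log2 values of Adamts1 and Adamts5 had a Pearson correlation of 0.85, and 0.75 after removal of the 6 group means. For Adamts1 and Adamts4 these values were 0.67 and 0.73. Pik3cd-/- E2 replicate 3, highest of its group in all 7 genes, enters the values within groups, and they were not computed without it. Adamts6 and Adamts10 had 0.56 over the arrays and -0.06 within groups. The genes most like each member over the 18 arrays were Ppp1r18, Cadm3 and Tox for Adamts1 (0.93, 0.92 and 0.92), and Jade1, Gas2l1 and Stk17b for Adamts5 (0.94 each). For Adamts6 they were Fam210a, Kcnq5 and Foxo1 (0.96, 0.96 and 0.95), and for Adamts9 Scamp2, Col4a4 and Pank1 (0.88, 0.85 and 0.84). For Adamts10 they were Pkn3, Zfp41 and Igfbp1 (0.93, 0.90 and 0.90), for Adamts4 Ankrd46, Tmem63a and Cbr2 (0.90, 0.87 and 0.86), and for Adamts12 Sparc, Col5a2 and Cav1 (0.92 each). These are descriptions over arrays that fall into groups, with no test.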

How the data were processed

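RNA of mouse ovaries was hybridised to 18 Affymetrix arrays, 3 in each of 6 groups. The authors deposited 1 linear intensity for each probe set on each array, and MAS5 is named without a version per the submitters' processing notes. The intensities were used without further normalization. Of 45101 probe sets, 34958 had 1 symbol, 932 several and 9211 none in GEO's platform annotation, whose symbols were updated through Entrez IDs, and 64 were controls. The brightest probe set stood for each of 18194 genes.

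Tests used log2(signal + 8.58). The pseudocount is the 10th percentile of all values. Genes with a group mean above 5.87, the median of all log2 values, were tested. Limma 3.58.1 (R 4.3.3) fitted 6 group means in a single model, using eBayes with trend (residual degrees of freedom 12, prior 3.66). P-values of the 11 two-sided comparisons were adjusted by Benjamini-Hochberg. In simulated data of 12714 genes, changes of log2 0.5, 1 and 2 for PMSG in Pik3cd+/- ovaries were given to 67, 67 and 66 genes. They were recovered in 64.2%, 85.1% and 100% of these, with 11 false calls among the unchanged genes. The noise was drawn separately for each gene and array, so it held no deviations that the genes of an array share.

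Members and lists were chosen with earlier results of these data known. All members were named, and of each list up to 3 called genes with the smallest adjusted p per comparison, with some left out for length. Pgr, the uncalled Vcan value and fits of list genes and averages without E2 arrays were added after values were seen. Nothing states that array numbers pair the arrays, and 11 of 45 pairs with the same number had deviations correlated over 0.1, so no pairing was used.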

Additional observations from a re-analysis of the deposited data

How the results depend on the processing

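Of 77 results for single genes, 19 were called, and 7 of these kept their call under each of the 15 alternatives run for them: Adamts1 and Adamts5 for PMSG and for PMSG against E2 in Pik3cd+/- ovaries, Adamts5 for both in Pik3cd-/- ovaries, and Adamts9 for PMSG against E2 in Pik3cd-/- ovaries. These varied the pseudocount (1, 64) and the filter (none, 70th percentile), normalized by quantiles, dropped the trend, and used only the groups compared, the replicate number as a block, or the probe set of highest variance. Each array was also left out. The number of members called changed by over 1.5 times as follows, and the cause was not tested. Without the filter it was 1 for PMSG in Pik3cd-/- ovaries, 0 for E2 in Pik3cd-/- ovaries and 1 for genotype after PMSG. Of all 18194 genes 266, 2 and 400 were called there. Quantile normalization and the replicate block each gave 0 for E2 in Pik3cd-/- ovaries, beside 3 and 2 of all genes. The replicate block changed no other call (Adamts9, adjusted p = 0.0593). With only the groups compared it was 1 for E2 in Pik3cd+/-, 0 for E2 in Pik3cd-/- and 0 for genotype after E2, beside 779, 0 and 106 of all genes. Under that fit Adamts5 replaced Adamts6 as the call in untreated ovaries. With 1 array left out the counts ran from 1 to 2 (PMSG, Pik3cd-/-), 0 to 1 (E2, Pik3cd-/-), 0 to 1 (genotype untreated), 0 to 2 (genotype after PMSG), 2 to 4 (genotype after E2) and 2 to 4 (PMSG against E2, Pik3cd-/-). The PMSG count in Pik3cd+/- ran from 2 to 3. Over all genes the same settings gave 86 to 386, 2 to 24, 1 to 678, 82 to 384, 646 to 2971, 235 to 1363 and 872 to 2410 calls in this order.

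Signs turned in 42 cases, all among results not called. Adamts6 by E2 and genotype was 0.018 with a pseudocount of 1 and 0.0329 with quantile normalization, which also gave -0.0042 for Adamts5 (E2, Pik3cd+/-) and 0.0421 for Adamts1 (genotype after E2). The other Adamts10 probe set gave -0.36 (E2, Pik3cd-/-), 0.30 (PMSG against E2, Pik3cd-/-) and -0.052 (PMSG by genotype). With 1 array left out, log2 ranges that crossed 0 were, for Adamts1, -0.27 to 0.23 (E2, Pik3cd-/-) and -0.33 to 0.17 (genotype after E2). For Adamts4 they were -0.31 to 0.0203 (E2 by genotype), -0.0616 to 0.27 (E2, Pik3cd-/-), -0.13 to 0.0108 (genotype after PMSG), -0.15 to 0.0307 (genotype untreated), -0.0087 to 0.32 and -0.0446 to 0.13 (PMSG against E2, Pik3cd-/- and Pik3cd+/-) and -0.11 to 0.0738 (PMSG by genotype). For Adamts5 it was -0.11 to 0.19 (E2, Pik3cd+/-), for Adamts6 -0.23 to 0.18 (E2 by genotype), and for Adamts9 -0.0346 to 0.11 (genotype untreated) and -0.11 to 0.0333 (PMSG, Pik3cd+/-). For Adamts10 they were -0.0362 to 0.14 (E2, Pik3cd-/-) and -0.11 to 0.0138 (genotype after PMSG). For Adamts12 they were -0.54 to 0.19 (genotype after E2), -0.0049 to 0.29 (genotype after PMSG), -0.42 to 0.0214 (PMSG by genotype) and -0.19 to 0.25 (PMSG, Pik3cd-/-). No measure of background was used here, and 3 arrays per group limit every result.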
